A study of Mus musculus with 36 samples.

Results

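The comparison described here set untreated cells of a double mutant of the glucocorticoid receptor (GR) against untreated wild-type cells. Its members were the 6 vehicle libraries of run 1 that the labels give as GRD+L/D+L or GRwt/wt, of 36 libraries in all, and they were taken by genotype, treatment and run with no measured value involved. Total RNA came from mouse embryonic fibroblasts (MEFs), primary cells grown out of embryos from which the head and inner organs had been taken away. By the study's description each genotype was represented by 3 cultures, each from a different mouse, of the FVB/NJ strain. The GRD+L/D+L cells were homozygous for a receptor with a point mutation in the dimer interface of the DNA-binding domain (D) and another in that of the ligand-binding domain (L). The GRwt/wt cells carried the unchanged receptor on both alleles. All 6 cultures received only the solvent for 5 h, so no dexamethasone (Dex, a synthetic glucocorticoid) was added, though the medium held fetal calf serum. The other groups used below are the Dex libraries of both genotypes (1 µM for 5 h), GRD/D cells with the D mutation alone, GRko/ko cells in which the gene is disrupted, and the GRwt/wt libraries of run 2, all given as FVB/NJ in the labels. The embryos were at mid-gestation. The D+L allele was made by CRISPR/Cas9 in zygotes that already carried D, it was found in a single founder pup and it was backcrossed to FVB/NJ before heterozygotes were crossed, so every GRD+L/D+L culture descends from 1 editing event. X-linked and Y-linked genes took part in the fit and in the correction for multiple testing but are not described.

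GR is a nuclear receptor that sits in the cytoplasm with heat shock proteins until it binds a glucocorticoid, and it then moves to the nucleus. There it can bind palindromic response elements as a dimer, bind half-sites as a monomer, or act through other factors such as AP-1 and NF-kB. In fibroblasts it is known for repressing cytokines and matrix proteases and for raising a set of targets such as Fkbp5, Per1 and Pdk4. The comparison asks which genes differ between the genotypes when no Dex is added.

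The 6 libraries held 15280166 to 16396184 counts each. Between replicates the biological coefficient of variation was 0.0499 over the 24 libraries of run 1, and replicate pairs of these groups differed by more than counting noise, with a mean chi-square per gene of 1.78 to 2.09 within GRD+L/D+L and 2.37 to 4.24 within GRwt/wt where counting noise alone gives about 1. Transcripts of the sex chromosomes separated the 2 groups completely. Xist lay at 219 to 262 CPM (counts scaled to a common library total) in GRwt/wt and at 0.0611 to 0.569 in GRD+L/D+L, while the sum of the Y-linked transcripts used as a check was 0.0621 to 0.305 in GRwt/wt and 155 to 164 in GRD+L/D+L. GRD/D shared the pattern of GRwt/wt, whereas GRko/ko and both genotypes of run 2 shared that of GRD+L/D+L, and so in run 1 an effect of genotype on these autosomal genes and an effect of sex cannot be told apart. Within each group all 3 cultures had the same pattern. Deviations from the group mean correlated little between same-numbered vehicle and Dex libraries. The values were 0.012, 0.031 and 0.067 in GRD+L/D+L and 0.075, -0.040 and -0.091 in GRwt/wt. Whether the 3 cultures of a genotype are separate animals cannot be told from these libraries. If they did not come from separate animals, the p-values measure only the spread between these samples. The 3 GRwt/wt vehicle libraries of run 2 have the sex-linked pattern of GRD+L/D+L but belong to another run. In a comparison added after the data were seen, GRwt/wt of run 2 differed from GRwt/wt of run 1 at 3382 of 14942 autosomal genes (22.6%). The levels of these libraries are given beside many of the genes named.

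A gene was called where edgeR's quasi-likelihood test gave a Benjamini-Hochberg adjusted p of at most 0.05 and the log2 fold change was at least 1 in size, which is a 2-fold difference. Of 14301 autosomal genes tested, 801 (5.6%) were called, 368 higher in GRD+L/D+L (2.57%) and 433 lower (3.03%). Without the limit on the fold change 4506 genes (31.5%) passed, 2210 higher and 2296 lower. The called genes were mostly weakly expressed: 248 reached 50 counts on average over the 6 libraries, 125 higher and 123 lower, and 553 did not. Large differences were more often decreases, since 194 genes fell by a log2 fold change of 2 or more and 94 rose by as much. The 3 CPM values of one genotype did not overlap those of the other for 769 of the 801 called genes, against 45.5% of all autosomal genes tested. Set against the GRwt/wt vehicle libraries of both runs, GRD+L/D+L lay below all 6 of them for 361 of the 433 lower genes (83.4%) and above all 6 for 223 of the 368 higher genes (60.6%). Over all autosomal genes tested these shares were 17.5% and 13.4%. The 3 run 1 libraries among the 6 also entered the calls, so part of this gap follows from the calling. Only the 3 libraries of run 2 were not used for it. The plot of fold change by level shows where the called genes lie.

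**Figure D1:**
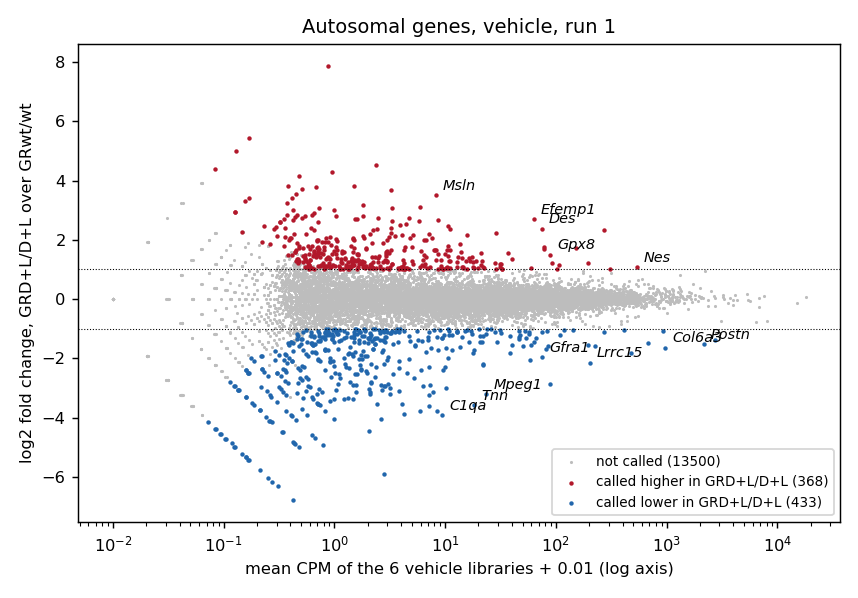
Log2 fold change of GRD+L/D+L over GRwt/wt (vehicle, run 1) against the mean CPM of the 6 libraries on a log axis, 1 point for each autosomal gene tested; red points are the 368 genes called higher, blue points the 433 called lower, grey points the others, and dotted lines mark the fold limit. The largest fold changes sit at low levels, and of the abundant genes Postn and Col6a3 are among those called lower and Nes among those called higher.

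The transcript of the receptor itself was somewhat more abundant in the mutant. Nr3c1 (chr18:39410545-39519421, minus strand, GRCm38 as for all coordinates here), the gene that encodes GR, was at 95.4, 94.5 and 90.1 CPM in GRD+L/D+L and at 64.2, 66.1 and 69.8 CPM in GRwt/wt. The groups did not overlap, but the log2 fold change of 0.48 ± 0.06 (SE, adjusted p = 3.69e-07) stayed under the fold limit, and GRwt/wt of run 2 was higher still at 109, 112 and 101 CPM. In GRko/ko, where the gene is disrupted, it was at 15.9, 17.8 and 15.9 CPM, and in GRD/D at 69.8, 80.2 and 73.4 CPM. Of 24 genes in a list of the receptor, its chaperones, its coregulators and the enzymes that convert its ligand, 1 was called, which is Hsd11b1, the enzyme that regenerates active glucocorticoid, at 0.316, 0.367 and 0.458 CPM against 0.807, 0.785 and 1.16 CPM (log2 fold change -1.27 ± 0.42, adjusted p = 0.0208). Over all autosomal genes tested 5.6% were called. These values of Hsd11b1 correspond to few counts, and the call was lost without GRD+L/D+L replicate 1 or 2 or GRwt/wt replicate 3. Hsp90aa1, Hsp90ab1 and Hspa8, which hold the unliganded receptor, had log2 fold changes of -0.04, 0.062 and 0.015.

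Most of the classical glucocorticoid targets did not differ by the calling rule at baseline. Among 29 tested members of that list 1 was called, against 5.6% of all autosomal genes. Without the fold limit 10 were higher and 4 lower, against 15.5% and 16.1% of all autosomal genes. The median log2 fold change of the list was 0, as it was over all autosomal genes tested. Fkbp5, a co-chaperone of the receptor, was at 48, 44.9 and 45.8 CPM in GRD+L/D+L and 45.7, 64.4 and 44.7 CPM in GRwt/wt, and the groups overlapped. Per1, a clock gene, was at 29.3, 28.7 and 27.8 against 28.4, 42.8 and 32.2 CPM, again overlapping, and Dusp1, a phosphatase that inactivates MAP kinases, had a log2 fold change of -0.14 ± 0.065 (adjusted p = 0.0913). The member called was Pdk4, a kinase that restrains entry of pyruvate into the mitochondrial cycle. Pdk4 was at 17.7, 16.4 and 16.6 CPM in GRD+L/D+L and 5.83, 5.56 and 4.57 CPM in GRwt/wt, a log2 fold change of 1.66 ± 0.10 (adjusted p = 2.90e-13), and it was also low in GRwt/wt of run 2, at 6.57, 6.06 and 6.59 CPM.

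Meox1 (chr11:101877510-101894374, minus strand), a homeobox factor of the somites, was at 5.5, 5.75 and 6.74 CPM in GRD+L/D+L and 0.683, 0.327 and 0.366 CPM in GRwt/wt (log2 fold change 3.67 ± 0.32, adjusted p = 5.74e-10). The groups of run 1 were far apart, yet GRwt/wt of run 2 was at 7.9, 7.88 and 5.86 CPM, as high as the mutant or higher. Msln, which encodes the mesothelial surface protein mesothelin, was at 13.4, 13.9 and 18.1 CPM against 1.24, 1.57 and 1.16 CPM (3.50 ± 0.17 on the log2 scale, adjusted p = 2.89e-15) and at 8.52, 7.64 and 8.01 CPM in run 2. Upk1b, a uroplakin of urothelium and mesothelium, was at 9.55, 12.2 and 10.1 CPM against 1.06, 1.44 and 1.16 CPM. Wt1, a transcription factor of kidney, gonad and mesothelium, stood between 9.93 and 9.97 CPM in the mutant and between 1.46 and 1.77 CPM in GRwt/wt (2.63 ± 0.17, adjusted p = 1.39e-12), with GRwt/wt of run 2 in between at 3.91, 3.48 and 4.8 CPM. Reads of Wt1 and of its antisense transcript cannot be told apart where the counting does not use strand, and the strand setting was not stated.

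Efemp1 (chr11:28853204-28926743, plus strand), which encodes the matrix glycoprotein fibulin-3, had the smallest adjusted p of the autosomal genes, 2.41e-20. It was at 111, 108 and 111 CPM in GRD+L/D+L and 18.1, 16.6 and 15.6 CPM in GRwt/wt, a log2 fold change of 2.70 ± 0.078. Run 2 GRwt/wt stood at 80.8, 81.8 and 78.7 CPM and GRko/ko at 114, 127 and 115 CPM, so among the vehicle groups the GRwt/wt cultures of run 1 and GRD/D (19.4, 22 and 18.8 CPM) were the low ones. Des, the muscle intermediate filament protein desmin, was at 124, 134 and 117 CPM against 24, 26.8 and 21 CPM (2.38 ± 0.082, adjusted p = 1.73e-18) and at 19.5, 20.7 and 19.8 CPM in run 2. Nes, the intermediate filament protein nestin of progenitor cells, was at 719, 748 and 725 CPM against 345, 331 and 358 CPM (1.08 ± 0.044, adjusted p = 1.06e-16). For Des and Nes the mutant lay above every GRwt/wt library of both runs. Uchl1, a ubiquitin hydrolase abundant in neurons, was at 119, 120.3 and 117 CPM against 39.9, 34.3 and 35.4 CPM, and Gpx8, an endoplasmic reticulum peroxidase, at 134, 136 and 125 CPM against 47.9, 47.5 and 43.5 CPM, with adjusted p values of 1.06e-16 and 1.55e-16. Gpx8 was higher again in run 2 GRwt/wt, at 177, 182 and 172 CPM.

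Serpinb6b, a serine protease inhibitor, was at 8.42, 8.68 and 7.59 CPM against 0.807, 1.44 and 1.4 CPM, and Foxd1, a forkhead factor of stromal progenitors, at 5.76, 5.56 and 5.82 CPM against 0.372, 1.18 and 1.16 CPM. Sorbs2, an adaptor of the actin cytoskeleton, was at 13.7, 14.2 and 17.2 CPM against 2.23, 3.14 and 1.71 CPM and at 17.8, 17.2 and 16.4 CPM in GRwt/wt of run 2. Of the 10 genes with the highest log2 fold changes, 7 were above all 6 GRwt/wt libraries, the exceptions being Meox1, Aldh1a1 and Sorbs2, while all 10 with the lowest fold changes were below all 6. Of all genes called, 60.6% of the higher lay above all 6 and 83.4% of the lower lay below all 6. The GRwt/wt libraries of run 1 also served to pick these 20 genes. The plot of the 20 genes by library shows the values. Most of the 10 lowest (C1qa, C1qb, C1qc, Mrc1, Stab1, Lilr4b, Mpeg1 and Laptm5) are the macrophage and myeloid genes described below. A list of macrophage markers summed to 712 to 771 CPM in GRwt/wt of run 2 and 264 to 479 CPM in run 1. The 10 are therefore not 10 separate comparisons with run 2. Serpinb6b has close relatives in the genome, as do Aldh1a7 and Lilr4b, so their counts are uncertain where reads could fall on a near-identical copy.

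**Figure D2:**
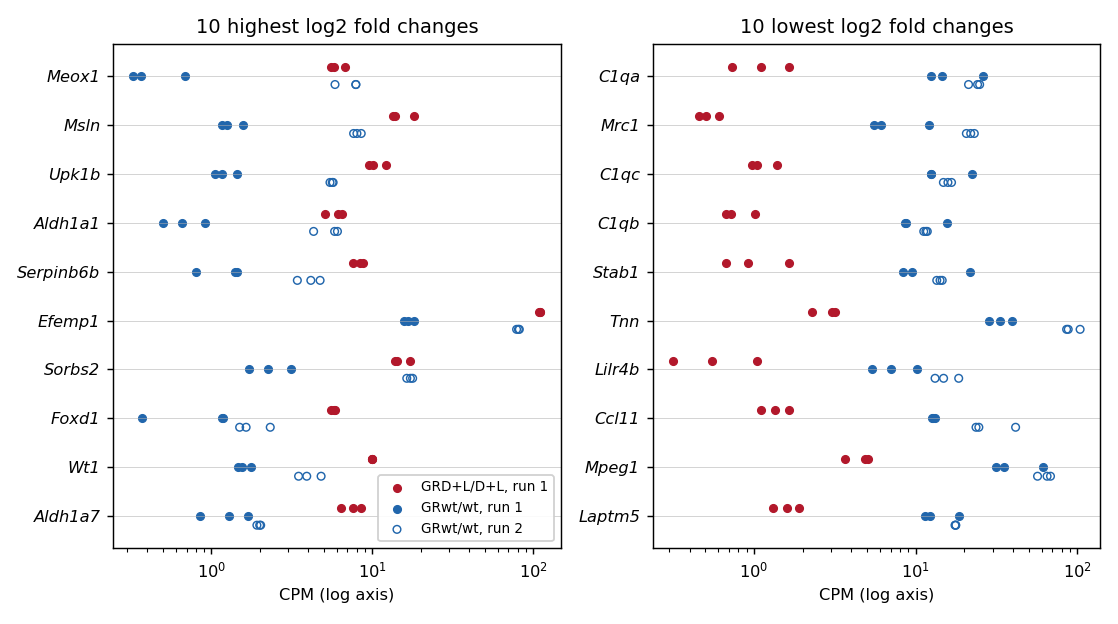
CPM on a log axis of the 10 genes with the highest (left) and the 10 with the lowest (right) log2 fold changes among called autosomal genes that reached 50 counts on average and did not overlap, 1 point for each vehicle library: GRD+L/D+L in red, GRwt/wt of run 1 in filled blue and of run 2 in open blue. On the right the red points lie left of all blue points for every gene, whereas on the left Meox1, Aldh1a1 and Sorbs2 of run 2 GRwt/wt reach the red points.

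Transcripts of macrophages, tissue phagocytes that primary cultures from embryos can carry along, were lower as a group. Of 20 macrophage markers 19 were called lower in GRD+L/D+L, against 3.03% of all autosomal genes, and the median log2 fold change of the list was -3.11. All 20 lay below every GRwt/wt library of both runs, as did 83.4% of all genes called lower and 17.5% of all autosomal genes tested. The GRwt/wt libraries of run 1 also entered the calls. With at least 10 counts in every library 10 of the markers were called lower. The markers passed the filter on low counts through the groups in which they are abundant, and several were close to 0 in the mutant. C1qa (chr4:136895917-136898803, minus strand), a chain of the complement component C1q, was at 1.65, 0.734 and 1.11 CPM in GRD+L/D+L and 14.6, 26.2 and 12.4 CPM in GRwt/wt (log2 fold change -3.92 ± 0.35, adjusted p = 8.71e-10). Its neighbours on chromosome 4, C1qb and C1qc, encode the other chains and were at 1.01, 0.673 and 0.72 and 1.39, 0.978 and 1.05 CPM in the mutant, against 8.56, 15.6 and 8.72 and 12.4, 22.4 and 12.5 CPM. In GRwt/wt the second culture was the highest for each of the 3 C1q genes. Mrc1, the mannose receptor, was at 0.506, 0.611 and 0.458 CPM against 5.52, 12 and 6.1 CPM, Stab1, a scavenger receptor, at 1.65, 0.673 and 0.916 CPM against 9.56, 21.6 and 8.3 CPM, and Laptm5, a lysosomal protein of blood cells, at 1.9, 1.59 and 1.31 CPM against 11.4, 18.7 and 12.2 CPM. Mpeg1, a pore-forming protein of phagocytes, was at 4.87, 5.07 and 3.67 CPM against 35.2, 60.9 and 31.2 CPM (-3.22 ± 0.21, adjusted p = 1.55e-12). Lilr4b, an inhibitory receptor of myeloid cells, was at 0.316, 0.55 and 1.05 CPM against 7.07, 10.1 and 5.37 CPM.

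Summed over the 20 markers, the level was 53.6, 47.7 and 42.8 CPM in GRD+L/D+L and 294, 479 and 264 CPM in GRwt/wt. It was 712 to 771 CPM in GRwt/wt of run 2, 961 to 1053 CPM in GRD/D and 4170 to 4551 CPM in GRko/ko, so the double mutant was the lowest and the knockout the highest of these groups, with no overlap between any of them. In bulk RNA a lower number of macrophages and less of these transcripts in each macrophage cannot be told apart. How much of the decrease of any other gene goes with the macrophage transcripts was not tested.

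**Figure D3:**
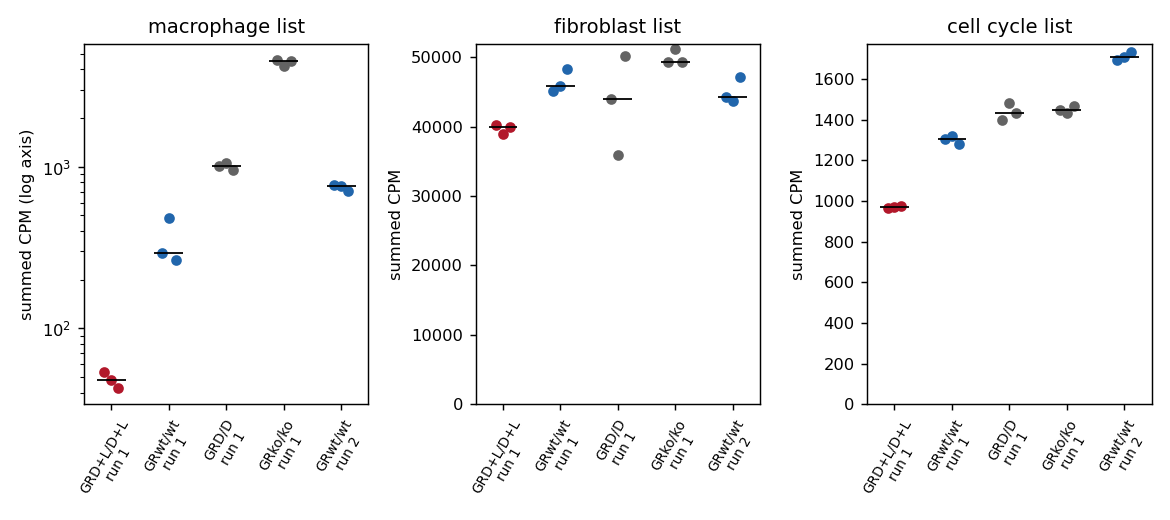
Summed CPM of 3 gene lists in each vehicle library (points) of 4 genotypes of run 1 and of GRwt/wt of run 2, with black lines at the group medians; the macrophage list (left, log axis) is at 42.8 to 53.6 CPM in GRD+L/D+L and above 264 CPM elsewhere. The fibroblast list (middle) and the cell cycle list (right) are on linear axes from 0, and in both GRD+L/D+L lies below the GRwt/wt libraries of both runs.

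Promoter sequence of these genes is shown because PU.1, the transcription factor that defines the myeloid lineage, binds a short GGAA-type core, and 19 of the lower genes are macrophage markers. The core AGGAAGT was searched on both strands in the 250 bases before the start sites of the RefSeq table (GRCm38.p6), which held 305 of the 433 lower genes, 232 of the 368 higher genes and 13 of the 19 macrophage genes called. It occurred before 5 of those 13 (C1qb, C1qc, Lyz2, Mrc1 and Ptprc), before 63 of the 305 lower genes (20.7%), before 14 of the 232 higher genes (6.03%), before 8.49% of the 10449 autosomal genes tested that had a promoter in the table, and before 8.8% of all 27025 promoters in it. Of the 5 motifs searched, the core was not the one found before most of these 13. The letters of a GR half-site, AGAACA, occurred before 6 of them, against 12.5% of the autosomal genes tested that had a promoter. A match is a description of the letters and not a binding site. Lyz2, the lysozyme of myeloid cells, was at 25.1, 21 and 18.9 CPM in GRD+L/D+L and 139, 211 and 118 CPM in GRwt/wt. The single match in each of 3 of these promoters is in capitals, read as ACTTCCT because the core lies on the strand opposite to the gene. C1qb is at chr4:136886201-136886308 on the minus strand with the match 53 to 47 bases before the start site, Lyz2 at chr10:117282311-117282427 on the minus strand with the match 100 to 94 bases before it, and Mrc1 at chr2:14229164-14229264 on the plus strand with the match 211 to 205 bases before it.
C1qb: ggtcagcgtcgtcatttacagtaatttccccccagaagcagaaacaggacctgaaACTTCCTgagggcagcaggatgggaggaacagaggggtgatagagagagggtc
Lyz2: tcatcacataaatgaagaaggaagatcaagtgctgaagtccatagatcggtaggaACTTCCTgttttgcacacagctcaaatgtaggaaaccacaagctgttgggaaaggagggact
Mrc1: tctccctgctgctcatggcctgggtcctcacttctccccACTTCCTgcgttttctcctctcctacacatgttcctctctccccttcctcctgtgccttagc

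Defining transcripts of fibroblasts were abundant in both groups, though some of the list were called lower. Vim, the mesenchymal intermediate filament protein vimentin, was at 5191, 5678 and 5339 CPM in GRD+L/D+L and 5526, 5273 and 5530 CPM in GRwt/wt, and Thy1, a surface protein of fibroblasts, at 501, 491 and 497 against 507, 506 and 494 CPM, both overlapping. Of 14 fibroblast markers 4 were called lower and none higher, against 3.03% and 2.57% of all autosomal genes. On the adjusted p alone 8 were lower and 0 higher, against 16.1% and 15.5%. The summed level of the list was 39000 to 40170 CPM in GRD+L/D+L and 45150 to 48260 CPM in GRwt/wt. Postn, the matricellular protein periostin, was at 1168, 1111 and 1067 CPM against 3233, 3230 and 3158 CPM (-1.53 ± 0.11, adjusted p = 1.85e-11), and Pdgfra, a receptor for platelet-derived growth factor, at 16, 16.9 and 15.3 CPM against 39.8, 47.5 and 42.6 CPM. The proteoglycans Lum and Dcn were low in both groups of run 1, Lum at 1.52, 2.32 and 1.7 against 6.39, 9.23 and 6.95 CPM and Dcn at 40.3, 36.6 and 31.2 against 74.2, 81.2 and 78.2 CPM. Both were far higher in GRwt/wt of run 2, at 239, 229 and 227 CPM for Lum and 662, 646 and 695 CPM for Dcn, a gap between runs that is wider than the gap between genotypes.

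Matrix genes fell more often than they rose. Among 27 collagen genes 7 were called lower and 1 higher, against 3.03% and 2.57% of autosomal genes. On the adjusted p alone 15 were lower, against 16.1%. All 3 of Col6a1, Col6a2 and Col6a3, which encode the chains of the microfibrillar collagen VI, were called. Col6a2 was at 222, 212 and 197 CPM in GRD+L/D+L and 726, 732 and 754 CPM in GRwt/wt (-1.82 ± 0.10, adjusted p = 1.16e-13), Col6a1 at 381, 360.2 and 346 against 988, 999 and 1037 CPM, and Col6a3 at 487, 465 and 464 against 1383, 1456 and 1550 CPM. Run 2 GRwt/wt was above both for each chain, at 2044, 1803 and 1921 CPM for Col6a3. Col5a3, a minor fibrillar collagen, was at 38, 36.6 and 41.8 CPM against 129, 109 and 130.4 CPM, and Col12a1, a collagen that decorates fibrils, at 1503, 1512 and 1548 CPM against 3770, 3807 and 4293 CPM. Col1a1, the main chain of collagen I, was lower as well, at 6179, 5840 and 6084 CPM against 9478, 9905 and 10610 CPM, but its log2 fold change of -0.74 ± 0.12 was under the fold limit. The member called higher was Col2a1, the collagen of cartilage, at 10.3, 12 and 10.3 CPM against 2.36, 3.21 and 2.5 CPM, and GRwt/wt of run 2 overlapped the mutant at 9.58, 9.62 and 14 CPM.

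In the list of other matrix proteins 6 of 30 members were called lower (Fbn2, Fbln1, Postn, Dcn, Lum and Thbs2) and 3 higher (Ogn, Prelp and Efemp1). Over all autosomal genes 3.03% were called lower and 2.57% higher. Prelp, a leucine-rich proteoglycan of basement membranes, was at 20.2, 22.2 and 19.6 CPM in GRD+L/D+L against 5.9, 9.29 and 8.17 CPM in GRwt/wt and, above both, at 49.4, 46.1 and 48.5 CPM in GRwt/wt of run 2. Tnn (chr1:160085029-160153580, minus strand), the matrix protein tenascin-W, had the lowest fold change outside the macrophage genes among the 10 lowest, at 3.16, 3.06 and 2.29 CPM against 33.3, 28.5 and 39.5 CPM (-3.58 ± 0.22, adjusted p = 3.55e-13). Unlike the macrophage genes it was low in GRko/ko too, at 1.86, 2.41 and 2.03 CPM, which overlapped the double mutant, and it was at 15.3, 13.1 and 16.4 CPM in GRD/D and 87.7, 85.8 and 104 CPM in run 2 GRwt/wt. Lrrc15, a leucine-rich membrane protein of activated fibroblasts, was at 75.4, 72.9 and 74.8 CPM against 331, 294 and 360.4 CPM (-2.15 ± 0.081, adjusted p = 1.48e-17). Gfra1, a receptor for glial cell line-derived neurotrophic factor, had the smallest adjusted p of the autosomal genes that were lower, 5.65e-18, at 31.3, 31.6 and 28.7 CPM against 115, 119 and 122 CPM, whereas GRwt/wt of run 2 stood at 132, 130.1 and 130.4 CPM, GRD/D at 109.8, 116 and 114 CPM and GRko/ko, below the double mutant, at 26.1, 25.4 and 27.9 CPM.

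Among 21 autosomal proteases and inhibitors of the matrix, 7 were called lower (Mmp3, Mmp9, Mmp10, Mmp13, Adamts2, Adamts9 and Adamts16) and none higher, against 3.03% of all autosomal genes called lower. On the adjusted p alone 5 were higher and 13 lower, against 15.5% and 16.1%. The higher ones included the inhibitors Timp2 (log2 fold change 0.94, adjusted p = 3.00e-15) and Timp3 (0.80, adjusted p = 2.89e-15), both under the fold limit. The summed level of the list was higher in GRD+L/D+L, at 11940 to 12090 CPM against 9285 to 9716 CPM in GRwt/wt. Each of the 7 lay below all 6 GRwt/wt libraries, as did 83.4% of all lower genes. Mmp3, the stromelysin that degrades many matrix proteins, was at 9.17, 7.64 and 6.28 CPM in GRD+L/D+L and 34.8, 39.2 and 34.5 CPM in GRwt/wt (-2.23 ± 0.34, adjusted p = 8.31e-06). Mmp10, its close relative stromelysin 2, was at 4.87, 4.4 and 5.43 CPM against 16.5, 15 and 14.3 CPM, and Mmp13, an interstitial collagenase, at 12.2, 12.1 and 10.3 CPM against 28.2, 35.2 and 30.4 CPM. GRD/D was closer to the double mutant than to GRwt/wt for Mmp3 (10.4, 9.44 and 9.84 CPM), Mmp10 (6.58, 6.53 and 5.81 CPM) and Mmp13 (11.9, 10.6 and 12.1 CPM). Mmp9, a gelatinase also made by leukocytes, was at 9.55, 11.4 and 11.6 CPM against 25.8, 20.6 and 26.7 CPM, and Adamts2, which removes the amino-terminal propeptide of collagens, at 31.3, 28.6 and 26.5 CPM against 64.8, 70.4 and 66 CPM. The gelatinase Mmp2 was at 324, 325 and 324 CPM against 315, 319 and 329 CPM, overlapping, so the difference did not extend to every matrix metalloproteinase.

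Mmp13, Mmp3 and Mmp10 lie in one cluster on chromosome 9, and their promoters are shown because all 3 genes were called lower and each holds the letters of an AP-1 element, TGANTCA, close to the start site. AP-1 is the Fos and Jun dimer through which matrix metalloproteinases are induced and which GR is known to restrain. The RefSeq table held promoters of 5 of the 7 proteases called, and 3 of those 5 had the motif in the 250 bases before the start site. It occurred before 12.1% of the lower genes, 8.62% of the higher genes and 5.83% of the autosomal genes tested that had a promoter in the table, and in 7.82% of all its promoters. A GR half-site, AGAACA, occurred before 19% of the lower, 15.5% of the higher and 12.5% of the autosomal genes tested and in 18.2% of all promoters, and the whole GR palindrome (AGAACA and TGTTCT with 3 bases between them) before 0 of the 305 lower genes, 0 of the 232 higher genes and 1 of the 10449 autosomal genes tested, with 3 among all promoters. The AP-1 match is in capitals: in Mmp3 (chr9:7445721-7445821, plus strand) 46 to 40 bases before the start site, in Mmp10 (chr9:7502224-7502340, plus strand) 63 to 57 bases before it and in Mmp13 (chr9:7272424-7272513, plus strand) 35 to 29 bases before it.
Mmp3: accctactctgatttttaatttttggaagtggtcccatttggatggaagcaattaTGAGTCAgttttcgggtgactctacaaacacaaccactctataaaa
Mmp10: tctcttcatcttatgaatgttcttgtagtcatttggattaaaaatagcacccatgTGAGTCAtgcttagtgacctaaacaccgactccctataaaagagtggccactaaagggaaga
Mmp13: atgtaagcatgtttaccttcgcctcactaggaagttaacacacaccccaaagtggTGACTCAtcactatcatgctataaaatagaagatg

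Inflammatory mediators moved in both directions. Of 21 members of the list 9 were called lower (Cxcl1, Cxcl2, Cxcl5, Ccl7, Il1b, Il1rl1, Tnf, Csf3 and Saa3) and 4 higher (Cxcl12, Ccl20, Lif and Icam1), against 3.03% and 2.57% of all autosomal genes. With all 36 libraries and an additive run term 1 was called higher in place of 4, and with only the 6 libraries compared 5 were called lower in place of 9. Cxcl5, a chemokine for neutrophils, was at 1.71, 1.47 and 1.18 CPM in GRD+L/D+L against 12, 12.4 and 8.72 CPM in GRwt/wt (-2.92 ± 0.24, adjusted p = 1.21e-10), and Ccl11, the eosinophil chemokine eotaxin, which is on no list but is among the 10 lowest fold changes, at 1.65, 1.35 and 1.11 CPM against 13.1, 12.6 and 12.9 CPM. Il1rl1, the receptor for interleukin-33, was at 116, 114 and 106 CPM against 359.6, 325 and 329 CPM (-1.60 ± 0.067, adjusted p = 1.46e-16). Il1b, Tnf and Cxcl2, cytokines that macrophages make, were at 0 counts in at least 2 of the 3 mutant libraries and at most at 1.24 CPM in the GRwt/wt libraries of run 1, so they rest on few counts. The macrophage list was lower in the same libraries, at 42.8 to 53.6 CPM against 264 to 479 CPM, and its part in the inflammatory genes was not tested. Icam1, an adhesion molecule for leukocytes, was higher at 13, 13.8 and 12.9 CPM against 5.46, 5.11 and 5.06 CPM, and Cxcl12, a chemokine that retains blood progenitors, at 27.8, 30.2 and 33.2 CPM against 11.8, 12.5 and 13.1 CPM. Both were above the mutant in GRwt/wt of run 2, at 33.8, 33 and 33.3 CPM for Icam1 and 246, 243 and 251 CPM for Cxcl12. Il6, the cytokine interleukin-6, was at 9.93, 11.3 and 10.9 CPM against 8.38, 7.59 and 7.93 CPM and Ccl2, a monocyte chemokine, at 52.4, 57 and 53.9 CPM against 73.1, 77 and 67.6 CPM, both under the fold limit. In the list of 20 interferon-stimulated genes, Usp18 and Ifi44 were called higher and Rsad2 lower. The 2 called higher became 1 without GRD+L/D+L replicate 2 or 3 or GRwt/wt replicate 2, with only the 6 libraries compared, without GRko/ko and with all 36 libraries, and Rsad2 was lost when any library but GRD+L/D+L replicate 3 was left out.

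Genes that record position along the embryo differed in both directions. The Hox genes are homeobox factors whose expression in fibroblasts keeps a memory of the place of origin. Of 35 tested, 6 were called higher, and these were the neighbours Hoxa2, Hoxa3, Hoxa4, Hoxa5, Hoxa6 and Hoxa7 on chromosome 6, while Hoxc11 was called lower, a call lost without GRwt/wt replicate 1 or 2. Over all autosomal genes 2.57% were called higher and 3.03% lower. On the adjusted p alone 17 of the 35 were higher and 10 lower, against 15.5% and 16.1% of all autosomal genes. Hoxa5 (chr6:52201754-52204587, minus strand) was at 23, 20.4 and 19.2 CPM in GRD+L/D+L and 5.96, 7.4 and 7.56 CPM in GRwt/wt (1.58 ± 0.11, adjusted p = 9.89e-12). Hoxa3 was at 12.2, 10.2 and 14.5 CPM against 4.53, 3.73 and 3.29 CPM and Hoxa7 at 27.8, 26.3 and 27 CPM against 12.9, 12.8 and 13 CPM. Beyond these 6 genes in the same cluster, Hoxa9 was at 9.3, 6.05 and 6.74 CPM against 10.8, 8.9 and 10.1 CPM and was not called. GRwt/wt of run 2 also lay below the mutant for Hoxa5 (5.75, 5.5 and 5.41 CPM), Hoxa3 (3.91, 3.4 and 4.8 CPM) and Hoxa7 (9.61, 9.22 and 9.88 CPM), and 5 of the 6 were above all 6 GRwt/wt libraries. Antisense transcripts run through this cluster, and their reads cannot be told apart from those of the Hoxa genes unless the counting used strand.

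Other factors of regional identity were called higher more often than lower. Of 38 in that list 8 were called higher, among them Foxf1, Foxd1, Meox1, Pax1, Alx1 and Msx2, and none lower. Over all autosomal genes these shares were 2.57% and 3.03%. That none was lower rests on the set of libraries, since 1 was called lower when any of GRD+L/D+L replicates 1, 2 and 3 or GRwt/wt replicates 2 and 3 was left out, without GRko/ko and with all 36 libraries, and 2 with an additive run term. Msx2, a homeobox factor of limb and skull mesenchyme, was at 10.6, 12.2 and 14.1 CPM in GRD+L/D+L and 6.14, 4.39 and 7.2 CPM in GRwt/wt, and Foxf1, a forkhead factor of visceral mesenchyme, at 4.3, 3.91 and 4.12 CPM against 2.42, 2.16 and 1.53 CPM. On the adjusted p alone 16 of the 38 were higher and 10 lower, so the direction was less one-sided than among the called genes.

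Signalling ligands and their binding proteins showed a similar mixture. Over all autosomal genes 2.57% were called higher and 3.03% lower. In the list of BMP and TGF-beta signalling 5 of 28 genes were called higher (Bmp2, Bmp4, Bmp5, Bmp6 and Gdf6), all ligands of the BMP branch. Of these 5, 2 lay above all 6 GRwt/wt libraries of both runs. With at least 10 counts in every library 3 of the list were called higher. The 1 called lower was Inhbb, a subunit of activin. Gdf6 was at 11, 9.9 and 10.0 CPM in GRD+L/D+L and 2.54, 2.81 and 2.32 CPM in GRwt/wt (2.00 ± 0.16, adjusted p = 1.21e-10), Bmp4 at 6.26, 6.73 and 7.26 CPM against 1.92, 1.77 and 2.26 CPM, and Inhbb at 39.6, 41.2 and 34 CPM against 85, 111 and 87.7 CPM. Bmp4 was higher still in run 2 GRwt/wt, at 25.8, 26.3 and 23.1 CPM, whereas Gdf6 was not, at 2.74, 3.03 and 2.36 CPM. Among 22 Wnt genes Wnt10b, Sfrp4 and Rspo2 were called higher and Wnt4 lower. Sfrp4, a secreted Wnt antagonist, was at 5.82, 6.3 and 4.39 CPM against 0.993, 0.916 and 1.16 CPM, and the ligand Wnt4 at 19.7, 20.5 and 19.9 CPM against 46, 35.4 and 51.2 CPM. Of 12 genes of insulin-like growth factor signalling 2 were called, both binding proteins and in opposite directions, Igfbp3 at 57.3, 56.3 and 52.3 CPM against 17.5, 21.1 and 17.1 CPM and Igfbp5 at 99, 96.8 and 101 CPM against 304, 250.2 and 316 CPM. For Igfbp3 GRwt/wt of run 2 was far above the mutant, at 542, 538 and 528 CPM.

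The retinoic acid list, genes of synthesis, transport and response, had 3 of 14 members called higher and 1 lower. Over all autosomal genes these shares were 2.57% and 3.03%. With at least 10 counts in every library 1 member was called higher. Aldh1a1, which makes retinoic acid from retinal, was at 6.07, 5.07 and 6.48 CPM in GRD+L/D+L and 0.496, 0.654 and 0.915 CPM in GRwt/wt (3.07 ± 0.25, adjusted p = 1.45e-10), and its neighbour Aldh1a7 at 6.39, 8.5 and 7.59 CPM against 1.68, 0.851 and 1.28 CPM. The cellular binding proteins of retinoic acid went opposite ways, Crabp2 at 26.8, 32.2 and 28.9 CPM against 13, 13.4 and 13.1 CPM and Crabp1 at 172, 174 and 175 CPM against 400.2, 348 and 380.0 CPM. GRwt/wt of run 2 overlapped the mutant for Aldh1a1, at 5.82, 6.06 and 4.31 CPM, and was above run 1 for Crabp1, at 553, 589.8 and 635 CPM.

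Proliferation genes were lower by less than the fold limit. None of 24 cell cycle genes was called, but 21 were lower and 0 higher on the adjusted p alone, against 16.1% and 15.5% of autosomal genes, and the median log2 fold change was -0.42. Their summed level was 964.7 to 976 CPM in GRD+L/D+L and 1282 to 1323 CPM in GRwt/wt, and at 1693 to 1735 CPM in GRwt/wt of run 2 it was higher again. Mki67, which marks cycling cells, was at 71.8, 71.5 and 72.3 CPM against 119, 122 and 125 CPM (-0.77 ± 0.072, adjusted p = 1.72e-09), and Top2a, a topoisomerase of dividing cells, at 88.3, 84.8 and 86.9 CPM against 126, 129 and 125 CPM. Among 16 CDK inhibitors and p53 targets none was called and 11 were higher and 2 lower on the adjusted p alone. Cdkn1a, the inhibitor p21, was at 789.5, 792 and 777 CPM against 627, 602 and 599 CPM (0.36 ± 0.041, adjusted p = 5.87e-08), and above every GRwt/wt library of both runs.

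Markers of other cell types were called in both directions, against 5.6% of all autosomal genes. No skeletal muscle gene of 9 was called. Of the endothelial list Emcn, a surface sialomucin, was higher at 6.9, 7.09 and 6.09 CPM against 1.55, 1.44 and 1.4 CPM and Vwf lower, among 8 tested, the call of Vwf being lost without GRD+L/D+L replicate 2 or GRwt/wt replicate 2. Epithelial Cldn4 was higher among 4, and neuronal Stmn2, a regulator of microtubules, among 9, at 55.6, 59.3 and 56.7 CPM against 23.1, 22.1 and 22.3 CPM. In the cartilage list Col2a1 and Comp were higher and Acan lower of 12. Acan was lost without GRD+L/D+L replicate 2 or 3 or GRwt/wt replicate 3, and DESeq2 called 1 of the list higher in place of 2. In the bone list Dlx5 was higher and Sp7 lower of 8, and in the adipocyte list Ebf2, at 9.43, 10.0 and 9.88 CPM against 3.66, 3.53 and 3.78 CPM, was higher and Cd36, a fatty acid transporter shared with macrophages, lower of 7, at 1.01, 1.96 and 1.37 CPM against 6.02, 7.33 and 5.18 CPM. The contractile list of 18 genes had 2 called higher, Des and Mylk, the kinase of myosin light chain, at 46.3, 43.4 and 41.3 CPM against 19.2, 20.1 and 17.9 CPM (and 44.8, 41.8 and 38.9 CPM in GRwt/wt of run 2, overlapping the mutant), while Acta2, the smooth muscle actin, was at 6874, 6987 and 7119 CPM against 6920, 6499 and 6806 CPM.

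In the remaining lists few or no genes were called, against 5.6% of all autosomal genes tested. No gene of 25 in sterol and fatty acid synthesis, of 22 imprinted genes or of 16 immediate early genes passed the calling rule. In the oxidative stress list Hmox1, which degrades heme, was called higher of 14, at 400.3, 417 and 425 CPM in GRD+L/D+L and 206, 203 and 196 CPM in GRwt/wt. Of 11 complement genes C1qa was called lower. Of 21 adhesion genes Cdh13, at 31.8, 28.5 and 29.2 CPM against 14.5, 14.6 and 12.8 CPM and at 31.4, 31.3 and 31.4 CPM in GRwt/wt of run 2, which overlapped the mutant, and Icam1 were higher and Itga4, an integrin chain, lower at 11.8, 12.5 and 12.1 CPM against 29.4, 26.2 and 30.6 CPM. Adcy7, an adenylate cyclase outside these lists, was among the 5 lower genes with the smallest adjusted p, at 22.8, 22.8 and 23.7 CPM against 53.3, 52.3 and 56.8 CPM (adjusted p = 1.12e-15).

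**Figure D4:**
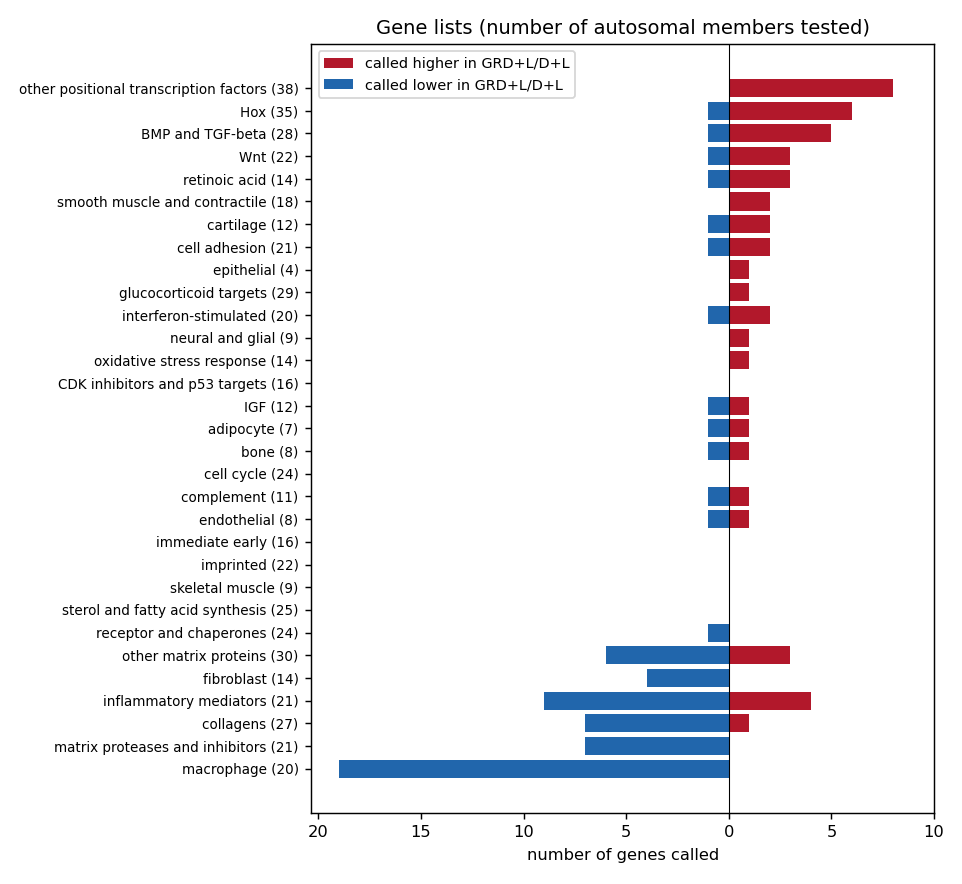
Number of genes called higher (red, to the right) and lower (blue, to the left) in GRD+L/D+L against GRwt/wt with vehicle for each of 31 gene lists, with the number of autosomal members tested in brackets. The macrophage list stands apart with 19 of 20 called lower, and the Hox list and the other positional factors have the most genes called higher. Over all autosomal genes tested 3.03% were called lower and 2.57% higher.

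The Dex libraries of both genotypes gave a second contrast between the genotypes. Its group means come from other libraries, but those libraries were part of the same fit and shared its filter and its estimate of the spread. There 865 autosomal genes were called (6.05%), 370 higher (2.59%) and 495 lower (3.46%). Of the 801 genes called with vehicle, 513 were called in the same direction with Dex (64.0% of the vehicle calls and 59.3% of the Dex calls), made up of 224 of the 368 higher genes and 289 of the 433 lower genes. A further group missed a threshold only by size, so that 600 had the same sign with an adjusted p of at most 0.05, which 31.4% of all autosomal genes reached with Dex. The fold change had the opposite sign for 23 genes, of which 0 were called with Dex. Of the 69 named genes that were called, 61 were called again. The design gives 3 cultures per genotype, so these libraries add no animals.

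The difference between the genotypes changed with Dex for 36 of the 801 genes (4.49%), by the interaction test at an adjusted p of at most 0.05, and for 482 of all 14301 autosomal genes (3.37%). The 801 were called on vehicle libraries that also enter this test. Pdk4 had the smallest adjusted p of the named genes in it. With Dex it was at 17.3, 17.7 and 17.9 CPM in GRD+L/D+L, where it had been at 17.7, 16.4 and 16.6 CPM. In GRwt/wt of run 1 it rose from 5.83, 5.56 and 4.57 CPM to 18.5, 18.7 and 18.4 CPM (log2 fold change 1.85, adjusted p = 1.69e-14). Within run 1 the level of the mutant without Dex was thus near that of GRwt/wt with it. In GRwt/wt of run 2 Pdk4 with Dex was far above both, at 94.6, 102 and 103 CPM. Sorbs2 followed the same course within run 1, with 18, 17.8 and 19.7 CPM in the mutant and 18.1, 19.7 and 17.9 CPM in GRwt/wt after Dex. Aldh1a7 did likewise at 6.09, 6.63 and 7.47 and 5.04, 5.5 and 4.71 CPM. With Dex in GRwt/wt of run 2, Sorbs2 was at 21.6, 22.7 and 25.6 CPM and Aldh1a7 at 55, 50.4 and 52.7 CPM. For Inhbb the mutant was the group that moved. In GRD+L/D+L it rose from 39.6, 41.2 and 34 CPM with vehicle to 88.1, 91.3 and 81.7 CPM with Dex. In GRwt/wt it did not rise, at 85, 111 and 87.7 CPM with vehicle and 77.7, 87.7 and 91.5 CPM with Dex. Crispld2, a secreted protein of lung mesenchyme, diverged further, because it was at 31.3, 31.7 and 28.1 CPM against 90.7, 84.3 and 91.5 CPM with vehicle and at 34, 36.1 and 33.5 CPM against 205, 204 and 225 CPM with Dex.

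**Figure D5:**
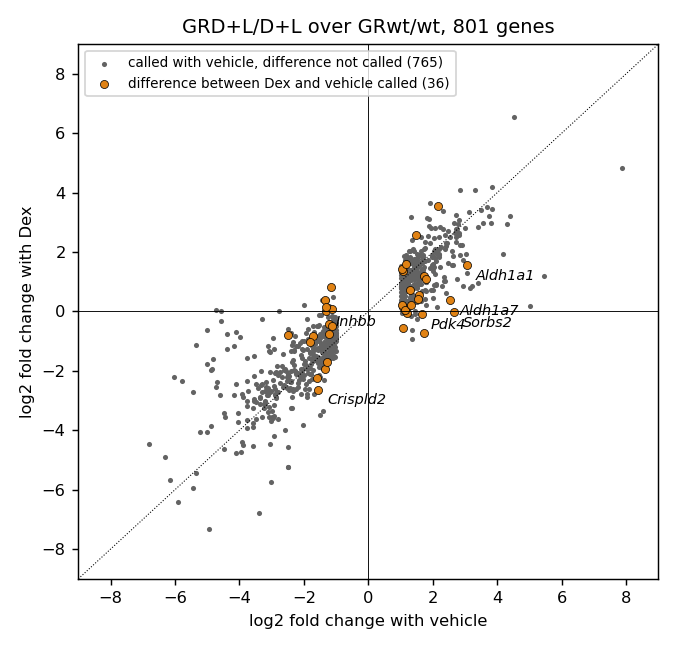
Log2 fold change of GRD+L/D+L over GRwt/wt with Dex against that with vehicle for the 801 autosomal genes called with vehicle, 1 point for each gene, with a dotted line of equality; orange points are the 36 genes whose difference between Dex and vehicle passed the interaction test. Most points keep their sign, while Pdk4, Sorbs2, Aldh1a7 and Inhbb lie near 0 on the Dex axis.

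The other genotypes of run 1 place the double mutant. With vehicle, GRD+L/D+L differed from GRD/D, which carries only the D mutation, at 1014 autosomal genes (7.09%), and GRD/D from GRwt/wt at 322 (2.25%). GRko/ko differed from GRwt/wt at 2026 (14.2%). These comparisons share libraries with the one described, so their overlap is not given, and the values of members are set side by side instead. Against GRwt/wt the log2 fold changes of Efemp1 were 2.70 in GRD+L/D+L, 0.24 in GRD/D and 2.76 in GRko/ko. Those of C1qa were -3.92, 1.55 and 3.40 in the same order, those of Gfra1 -1.96, -0.082 and -2.23, those of Mmp3 -2.23, -1.89 and -0.96, and those of Hoxa5 1.58, 0.20 and 1.21. The methods describe the GRko/ko mice as of another strain background than the labels do, so part of that genotype's difference cannot be told apart from strain.

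Genes that Dex changes in normal MEFs were present among the baseline differences in both directions. The Dex response of GRwt/wt was taken from run 2, whose libraries do not enter the baseline comparison, and 654 of 14689 autosomal genes were called there (4.45%), 371 raised (2.53%) and 283 lowered (1.93%). Of the 310 higher genes tested in run 2, Dex raised 20 (6.45%) and lowered 27 (8.71%), and of the 409 lower genes it raised 22 (5.38%) and lowered 39 (9.54%). Pdk4, Aldh1a7 and Aldh1a1, all higher in the mutant at baseline, were raised by Dex in these GRwt/wt cells by 4.02, 4.79 and 2.76 on the log2 scale. Cxcl5 and Mmp10, lower in the mutant at baseline, were lowered by Dex, with log2 fold changes of -2.71 and -2.64. Crispld2 was lower at baseline and raised by Dex (1.76), and Meox1 was higher at baseline and lowered by Dex (-2.06), so no single direction held.

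The called genes were spread over all 19 autosomes, from 3.16% of tested genes on chromosome 8 to 8.32% on chromosome 14. On chromosome 18, which carries Nr3c1, 26 of 423 were called (6.15%), and within 5 Mb of Nr3c1, 9 of 124 were called. Protein-coding genes made up 91.6% of the called genes and 89.8% of those tested.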

How the data were processed

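RNA was measured in MEFs by RNA-seq (TruSeq libraries, NextSeq 550). Per the labels and the methods, the authors mapped reads to mm10 with HISAT2 2.1.0, retained those with a unique position and summarised them over genes with featureCounts 2.0.0. The deposited values are raw counts per gene, with no normalization. The annotation release and the strand setting are not given in the sources used here. Libraries were grouped by genotype, treatment and run from the labels. Of 55487 genes, 55227 were matched to symbols and coordinates in GENCODE M21 (GRCm38).

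Counts were analysed with edgeR 4.0.16 and limma 3.58.1 in R 4.3.3. All 24 libraries of run 1 entered 1 fit with 8 groups, filterByExpr and TMM scaling, and 14817 genes holding 99.92% of the counts were tested. Adjusted p-values are Benjamini-Hochberg values over all of them. The SE, which is approximate, was derived from the size of the log2 fold change and the F statistic. The Dex response of GRwt/wt was fitted in run 2 alone. CPM divides counts by the library total. The p-values measure the spread between replicate libraries, which for run 1 was estimated over all 8 groups. Whether the 3 cultures of a genotype are separate animals cannot be told. Gene lists were described by counts and medians without a set test. The members and lists were chosen with earlier results of these data known. Named genes were called autosomal genes averaging 50 counts or more whose groups did not overlap (the 10 highest and 10 lowest fold changes and the 5 smallest adjusted p-values in each direction), up to 4 called genes of a list, and Nr3c1; others were chosen as list members or after their values were seen. The edgeR fit was tested on simulated data. Alternatives were DESeq2 1.42.0, its size factors, other filters, other sets of libraries, no fold limit, a replicate block and leaving out each replicate. Promoters came from a RefSeq table (GRCm38.p6). Figures were drawn with matplotlib in Python. A few genes are not reported here.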

Additional observations from a re-analysis of the deposited data

Results flagged for a closer look

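The difference between GRD+L/D+L and GRwt/wt was not the same with Dex as with vehicle for 12 of the 70 named genes, by the interaction test of the same edgeR fit (adjusted p of at most 0.05 over all genes tested). The same limit was passed by 36 of the 801 called genes (4.49%) and 482 of all 14301 autosomal genes (3.37%). All named genes but Nr3c1 were chosen on vehicle libraries that also enter this test. A difference that shrinks with Dex may therefore follow in part from that choice. Values below are the log2 fold change with Dex less that with vehicle. It was -1.76 for Pdk4 (adjusted p = 1.40e-10), -2.70 for Sorbs2, -2.16 for Aldh1a7 and -1.51 for Aldh1a1, all higher in the mutant with vehicle, and -0.55 for Cxcl12. It was 1.31 for Inhbb and 0.46 for Adcy7, both lower in the mutant with vehicle, so these differences also shrank with Dex. The difference widened for Crispld2 (-1.09, adjusted p = 2.11e-08) and Il1rl1 (-0.66), which were lower, and for Nr3c1 (0.38), Nes (0.28) and Hmox1 (0.39), which were higher. Groups of 3 libraries were not tested for single libraries that stand apart.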

How the results depend on the processing

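The count of called autosomal genes stayed within 1.5 times of 801 under every alternative but 2, from 633 with only the 6 libraries compared to 881 with all 36 libraries and an additive term for the run. Requiring at least 10 counts in every library, which keeps 11688 autosomal genes, gave 304 calls, 148 higher and 156 lower, 301 of them shared with the 801, and left 10 of the macrophage markers called. With no limit on the fold change 4506 genes passed, 2210 higher and 2296 lower. DESeq2 called 754 genes, 745 of them shared. Leaving out each replicate in turn gave 756 to 795 calls, and no single library decided the total. The replicate number as a block gave 798 calls and 859 with Dex; same-numbered cultures of the 2 genotypes did not deviate together (correlations -0.031, 0.011 and 0.019), so the numbers are not taken as pairs. The named genes kept their direction and their call under the alternatives in which they were tested, 61 of the 70 under the filter of 10 counts, except Nes (0.99), Cxcl12 (0.91) and Hmox1 (0.97), which fell under the fold limit with the additive run term. Of the smaller list counts, Rsad2, the interferon-stimulated gene called lower, was lost under DESeq2, the block, no filter and several other sets of libraries. With at least 10 counts in every library 3 inflammatory mediators were called lower in place of 9, and Hoxc11, Hsd11b1, Acan and the interferon-stimulated genes were not called, while 4 positional factors were called higher in place of 8. The 553 called genes with a mean count under 50 are those that depth limits most.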

Other observations

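Upk3b and Lrrn4, chosen after their values were seen, are genes of the mesothelial lining that were absent or nearly so in some groups. Upk3b was at 3.48, 5.13 and 4.97 CPM in GRD+L/D+L and 0.248, 0.131 and 0.183 CPM in GRwt/wt of run 1. Lrrn4 was at 2.02, 1.77 and 1.44 CPM in GRD+L/D+L, at 0 counts in all 3 GRwt/wt libraries of run 1 and at 0 in all 3 of GRD/D. In GRwt/wt of run 2 they were at 3.24, 3.23 and 2.73 and 7.74, 6.43 and 5.98 CPM, and in GRko/ko at 3.95, 2.74 and 2.41 and 2.38, 1.57 and 1.27 CPM. Across these vehicle groups both genes were detected where the Y-linked transcripts were detected and were at or near 0 in the others, and since each group showed 1 sex-linked pattern, sex cannot be told apart from genotype and culture.

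The GRwt/wt cultures of the 2 runs differed in other cell type lists as well. The skeletal muscle list summed to 626 to 730.2 CPM in run 1 and 21.2 to 24.8 CPM in run 2, and the adipocyte list to 40.0 to 51.8 CPM in run 1 and 729.7 to 772 CPM in run 2. In GRD+L/D+L these lists were at 629 to 641 CPM and 53.8 to 56.3 CPM, close to GRwt/wt of run 1. The skeletal muscle sum is not a measure of muscle cells. Myod1, Myf5, Pax7, Ttn and Mymk did not pass the filter in run 1, and 4 of the 14 members had 0 counts in its GRwt/wt vehicle libraries. The contractile list also differed between runs in GRwt/wt, at 22360 to 23120 CPM in run 1 and 8714 to 8853 CPM in run 2.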
